A study of Mus musculus with 7 samples.

Results

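The Z-disc genes described here are 10 genes taken by symbol from the deposited expression table: *Actn2*, *Actn3*, *Myoz1*, *Myot*, *Ldb3*, *Tcap*, *Pdlim3*, *Pdlim5*, *Flnc* and *Capzb*. All 10 were present among the 12239 genes of the table. They were taken by name, with earlier results of these data known. They were measured by RNA sequencing of whole tibialis anterior (TA), a fast-twitch hind leg muscle, from male mice of the FVBN strain aged 5 to 6 months. The 4 wild-type (WT) libraries carried an intact *Mybpc2*, which encodes fMyBP-C, the myosin-binding protein C of fast fibres, and the 3 C2-/- libraries came from mice with a Neo cassette between LoxP sites in place of *Mybpc2* exons 2 to 22. The design text gives 4 animals per group, and 3 C2-/- libraries were analysed here. No drug or other treatment was named for either group, and nothing in the sources used here says whether the WT animals were littermates of the C2-/- animals.

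The Z-disc is the lateral border of the sarcomere, where the barbed ends of thin filaments from neighbouring sarcomeres overlap and are cross-linked by α-actinin. Titin is anchored there at its N terminus, and a layer of α-actinin-binding proteins (myozenins, myotilin and PDZ-LIM proteins) and filamin C ties the lattice together and to the membrane. Myosin-binding protein C lies elsewhere, on the thick filament in the A-band. Many Z-disc proteins have fast-fibre and slow-fibre forms, and several are disease genes of skeletal muscle.

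Of the 10 genes, 5 fell and 3 rose in C2-/- muscle. *Myoz1*, *Tcap*, *Flnc*, *Actn3* and *Pdlim3* were lower, by 6.09-fold, 4.74-fold, 4.09-fold, 2.58-fold and 1.72-fold. *Myot*, *Capzb* and *Pdlim5* were higher, by 2.26-fold, 2.01-fold and 1.69-fold. *Actn2* and *Ldb3* did not pass the threshold, which was a limma adjusted p under 0.05 together with a fold change above 1.5 in either direction. These 8 of 10 are to be read against a background in which 45.2% of all 12239 genes passed, 20.2% as higher and 25.0% as lower. Among the 1029 genes whose mean log2 value was 7 or more, a level that was chosen after the data were seen and that all 10 genes reach, 60.4% passed. The median log2 change of the 10 genes was -0.59, and that of all genes was -0.14. Values are log2 CPM (reads of the gene for each 1e6 reads of the library) after TMM scaling, changes are C2-/- minus WT, and p-values measure only the spread between these libraries.

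**Figure D1:**
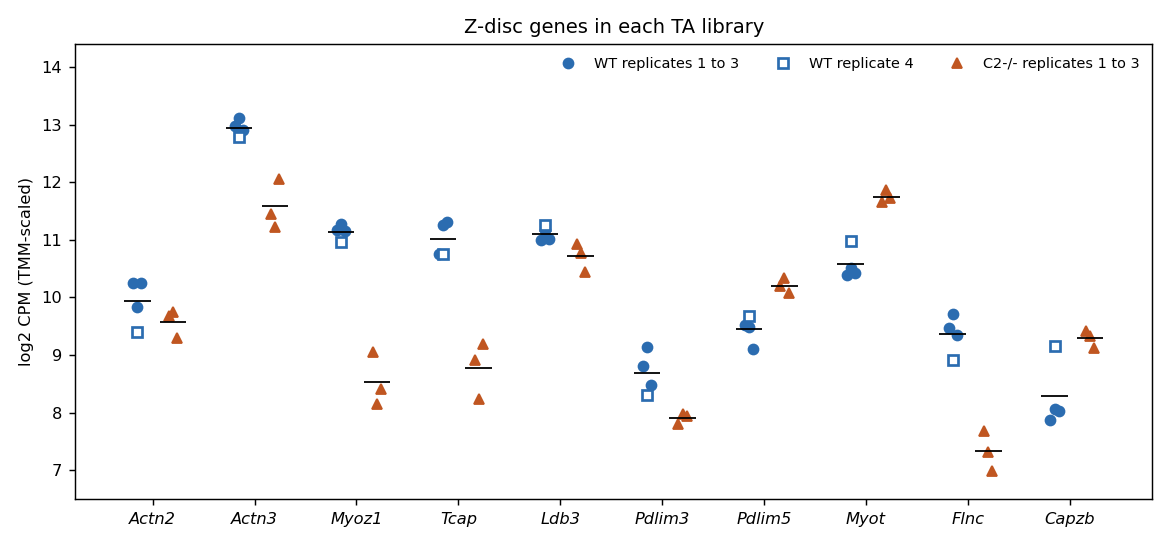
Expression of the 10 Z-disc genes in each library. The vertical axis is log2 CPM after TMM scaling, symbols are single libraries (filled circles WT replicates 1 to 3, open squares WT replicate 4, triangles C2-/-) and bars are group means. Triangles lie wholly below the WT symbols for *Actn3*, *Myoz1*, *Tcap*, *Ldb3*, *Pdlim3* and *Flnc*, wholly above them for *Pdlim5* and *Myot*, and overlap them in part for *Actn2* and *Capzb*.

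The libraries differed in ways that touch every value. *Mybpc2* stood at 12.41 to 12.85 in WT and at -0.47 to 1.67 (3 to 8 reads) in C2-/-, so all 7 libraries matched their labels. The table held 14929214 to 15464499 reads in each of WT replicates 1 to 3, but 4683853 in WT replicate 4 and 2613277 to 4917936 in C2-/-. Depth is therefore confounded with genotype except in WT replicate 4. The 10 genes were well covered all the same, with 424 reads for the least (*Flnc*) and 132912 for the most (*Actn3*) in any library. Log2 changes also moved with transcript GC content. Spearman's rho over 12169 genes was -0.68, a description over genes that share the same 7 libraries, and the median change ran from 1.11 in the decile of genes lowest in GC to -1.73 in the decile highest. For each gene the change is therefore also given after a GC correction, in which a smooth curve of log2 value on GC content was removed from each library. Such a correction takes out whatever follows GC content, whatever its source.

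The tissue label was checked against markers. All 6 skeletal muscle markers (*Acta1*, *Ckm*, *Myh4*, *Tnnt3*, *Mb* and *Des*) were abundant in every library, and their summed level was 123443 to 155519 CPM in WT and 67537 to 82669 CPM in C2-/-, with 4 of the 6 past the threshold as lower, and 1 after the GC correction. Of 8 fast-fibre markers 3 were lower (1 lower and 1 higher after the correction), with sums of 144835 to 168676 CPM in WT and 94577 to 112214 CPM in C2-/-. Of the 6 slow-fibre markers that were measured, 0 passed by limma and 0 had an unadjusted p under 0.05. Other fits called 1 as lower with voom (*Myh7*), the same 1 without WT replicate 4, 2 as lower with library quality weights and with the replicate block (*Myh7* and *Myl3*), and 1 as higher after the GC correction (*Atp2a2*). The slow-fibre sums were 43.9 to 101.6 CPM in WT and 52.3 to 80.7 CPM in C2-/-. In every library *Atp2a2* weighed most in them (log2 values of 5.38 to 5.63 in WT and 5.54 to 6.10 in C2-/-). By contrast *Myh7*, *Tnnt1* and *Tnnc1* had 0 to 13 reads each in C2-/- and 0 to 1 in WT replicate 4. The sums therefore say little about the other slow-fibre markers. *Myh7*, the slow myosin heavy chain, was without a read in each C2-/- library and also in WT replicate 4. These are the libraries of low depth, and the deeper WT replicates 1 to 3 held only 16 to 27 reads of it. Its calls as lower therefore rest on values near the floor. All 4 fibroblast markers (*Pdgfra*, *Dcn*, *Lum* and *Col1a1*) were higher (*Dcn* and *Col1a1* also after the GC correction, *Pdgfra* and *Lum* not), with sums of 339 to 521 CPM in WT and 1249 to 1425 CPM in C2-/-. The sums of macrophage markers were 15.9 to 29.2 CPM in WT and 32.3 to 49.2 CPM in C2-/-, with 1 of 4 genes past the threshold as higher. Smooth muscle marker sums overlapped between the groups (141 to 246 CPM in WT and 156 to 221 CPM in C2-/-, 1 of 5 lower), as did endothelial sums (332 to 497 CPM and 257 to 343 CPM, 1 of 5 lower), Schwann cell sums (31.7 to 70.1 CPM and 32.6 to 56.0 CPM, 1 of 3 lower) and satellite cell sums (11.6 to 35.3 CPM and 17.2 to 20.6 CPM, 1 of 4 higher). The 2 tendon markers in the table summed to 5.01 to 7.05 CPM in WT and 6.88 to 8.69 CPM in C2-/-, with *Tnmd* higher and *Scx* lower. The part that these cell types play in the changes of the Z-disc genes was not tested, and in bulk muscle fewer cells of a type and less RNA per cell cannot be told apart.

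The α-actinins cross-link antiparallel actin filaments. *Actn3* (chromosome 19, 4861216 to 4877909, minus strand, GRCm38) encodes the form confined to fast fibres. It stood at 12.98, 13.12, 12.90 and 12.79 in WT replicates 1 to 4 and at 11.45, 11.22 and 12.06 in C2-/- replicates 1 to 3. All C2-/- libraries lay below all WT libraries, and C2-/- replicate 3 was the closest to them. *Actn3* fell by 1.37 on the log2 scale (SE 0.24, limma adjusted p = 0.00195). Its transcript has a GC content of 56.9%, and after the GC correction the change was -0.06 (95% confidence interval -0.61 to 0.50, limma adjusted p = 0.891).

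*Actn2* (chromosome 13, 12269426 to 12340760, minus strand) encodes the α-actinin that all striated fibres carry. Its values were 10.25, 9.83, 10.25 and 9.40 in WT and 9.67, 9.74 and 9.30 in C2-/-. The groups overlapped, because WT replicate 4 lay among the C2-/- libraries. The change was -0.36 (SE 0.23, 95% confidence interval -0.88 to 0.15, limma adjusted p = 0.217). With the GC correction the sign turned, to 0.68 (limma adjusted p = 0.0436), which passed the threshold as higher, and without WT replicate 4 it was 0.59 (limma adjusted p = 0.0630) and did not pass. No direction for *Actn2* therefore held under both treatments of the data.

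Within each library the log2 value of *Actn3* exceeded that of *Actn2*. The log2 difference was 2.73, 3.29, 2.65 and 3.38 in WT and 1.78, 1.48 and 2.76 in C2-/-, and so C2-/- replicate 3 lay inside the WT range. Its mean was 3.01 ± 0.38 (SD, n = 4) in WT and 2.01 ± 0.67 (SD, n = 3) in C2-/-. Per transcript length this made *Actn3* 8.41-fold above *Actn2* in WT and 4.19-fold above it in C2-/-. The groups differed in this log2 value by -1.0, a difference that quantile normalization made -0.34 and the GC correction -0.74. The 2 genes share few sequences (0.0705% of the 50-base stretches of the *Actn3* transcript also occur in another gene, *Actn2*), so reads could seldom be assigned to the wrong one. The non-muscle α-actinins were far less abundant. *Actn1* rose by 0.82 (SE 0.29, limma adjusted p = 0.0433), a call kept in 1 of the 7 fits that left out a library (that without C2-/- replicate 2), and the change of *Actn4* was 0.57 (limma adjusted p = 0.0801), which passed at 0.88 without C2-/- replicate 3 (limma adjusted p = 0.0104). Both were past the threshold as higher after the GC correction.

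Myozenins bind α-actinin, filamin C and calcineurin at the Z-disc. *Myoz1* (chromosome 14, 20649107 to 20656540, minus strand) encodes the fast-fibre form, also known as calsarcin-2. *Myoz1* values were 11.17, 11.28, 11.15 and 10.97 in WT replicates 1 to 4 and 9.06, 8.15 and 8.40 in C2-/- replicates 1 to 3. The groups were far apart compared with the spread inside either. *Myoz1* fell by 2.61 (SE 0.22, limma adjusted p = 0.000162), the largest fall among the 10 genes. Its GC content of 54.6% lies in a decile of genes whose median change was -1.01, from which *Myoz1* differed by -1.60. After the GC correction its values were 10.61 to 10.81 in WT and 8.92 to 9.34 in C2-/-, and the fall of 1.64 (limma adjusted p = 0.000557) stayed past the threshold. *Myoz1* was the only one of the 5 fallen genes of which this was so.

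Among the other myozenins, *Myoz3*, a further form of fast fibres, stood at 8.67, 9.01, 8.77 and 8.62 in WT and at 7.41, 6.99 and 7.24 in C2-/-. It fell by 1.55 (SE 0.17, limma adjusted p = 0.000294), and by 1.23 after the GC correction (limma adjusted p = 0.00110), past the threshold in both. *Myoz2*, the slow-fibre and cardiac form, ranged from 0.77 to 4.60 in WT and from 4.27 to 4.97 in C2-/-. WT replicate 4 held the lowest *Myoz2* value, as it did for the slow-fibre marker sum. The change of 1.41 (SE 0.78, limma adjusted p = 0.156) was within the spread of the WT libraries, and it was 0.64 without WT replicate 4.

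Myotilin binds α-actinin and filamin C and bundles actin, and its gene is mutated in myofibrillar myopathy. *Myot*, on chromosome 18, was one of the 3 genes that rose. *Myot* stood at 10.38, 10.51, 10.42 and 10.98 in WT and at 11.65, 11.87 and 11.73 in C2-/-. WT replicate 4 was the highest WT library but remained below all C2-/- libraries. The rise was 1.18 (SE 0.20, limma adjusted p = 0.00153). *Myot* is low in GC (45.8%), and the GC-corrected rise of 0.74 (limma adjusted p = 0.0172) was still past the threshold. Among the paralogs of myotilin, *Mypn*, for myopalladin, fell by 0.68 (SE 0.14, limma adjusted p = 0.00372) but stood at 0.10 after the GC correction, and so kept no direction. *Palld*, for palladin, stood at 5.98 to 6.86 in WT and at 6.92 to 7.03 in C2-/-, without overlap. Its change of 0.49 (SE 0.21, limma adjusted p = 0.0753) did not pass, and that of 1.01 after the GC correction (limma adjusted p = 0.0133) passed as higher, as did that of 0.62 without WT replicate 4 (limma adjusted p = 0.0184).

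The PDZ-LIM proteins dock on α-actinin and titin through a PDZ domain and recruit kinases through LIM domains. *Ldb3*, also called ZASP or Cypher (chromosome 14, 34526603 to 34588682, minus strand), was at 11.00, 11.16, 11.02 and 11.26 in WT and at 10.93, 10.77 and 10.45 in C2-/-. The groups did not overlap, although C2-/- replicate 1 came close to the lowest WT library. The change of -0.39 (SE 0.18, 95% confidence interval -0.80 to 0.01, limma adjusted p = 0.0983) did not pass the threshold, nor did the GC-corrected change of -0.26 (limma adjusted p = 0.330). Non-overlap is itself common here, being met by 8 of the 10 genes and by 49.3% of all genes.

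*Pdlim3*, also called ALP (chromosome 8, 45885461 to 45919548, plus strand), had values of 8.80, 9.14, 8.48 and 8.31 in WT and of 7.80, 7.97 and 7.95 in C2-/-. All C2-/- libraries were below all WT libraries, with WT replicate 4 the nearest. It fell by 0.78 (SE 0.20, limma adjusted p = 0.0112), and the GC-corrected change was -0.22 (95% confidence interval -0.67 to 0.22, limma adjusted p = 0.452).

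*Pdlim5*, also called ENH (chromosome 3, 142239590 to 142395696, minus strand), had values of 9.52, 9.48, 9.10 and 9.68 in WT and of 10.20, 10.34 and 10.07 in C2-/-. Here all C2-/- libraries were above all WT libraries. The rise was 0.76 (SE 0.18, limma adjusted p = 0.00684). It was 0.51 and no longer past the fold threshold with quantile normalization, and the GC-corrected change was 0.13 (95% confidence interval -0.22 to 0.48, limma adjusted p = 0.578). *Pdlim5* has the lowest GC content of the 10 genes (44.1%).

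Of the other PDZ-LIM genes, *Pdlim7*, for enigma, stood at 7.93 to 8.13 in WT and at 4.59 to 6.40 in C2-/-. It fell by 2.35 (SE 0.36, limma adjusted p = 0.00100), and its GC-corrected change was -0.53 (limma adjusted p = 0.172). *Pdlim1*, *Pdlim2* and *Pdlim4* were at low levels and did not pass, with changes of -0.32, -0.44 and -1.77 (limma adjusted p = 0.424, 0.757 and 0.0892). *Pdlim4* passed without C2-/- replicate 1 (-2.46, limma adjusted p = 0.0295), had -0.94 without C2-/- replicate 2 and stood at -0.04 after the GC correction. After that correction neither *Ldb3*, *Pdlim3*, *Pdlim5* nor *Pdlim7* passed, so the opposite directions in this family passed on the deposited values and not on the corrected ones.

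Telethonin, the product of *Tcap* (chromosome 11, 98383811 to 98384953, plus strand), caps the N termini of a pair of titin molecules at the Z-disc. *Tcap* values were 10.75, 11.26, 11.32 and 10.76 in WT and 8.90, 8.23 and 9.19 in C2-/-. The gap between the groups was wider than the range inside either. *Tcap* fell by 2.24 (SE 0.25, limma adjusted p = 0.000323). It has the highest GC content of the 10 genes (61.3%), and the GC-corrected change was -0.44 (95% confidence interval -0.90 to 0.02, limma adjusted p = 0.155). The gene of its binding partner titin, *Ttn*, was set beside it after its values were seen, and had values of 13.47, 13.72, 13.57 and 14.37 in WT and of 14.41, 14.57 and 14.14 in C2-/-. WT replicate 4 lay among the C2-/- libraries for *Ttn*, whose change of 0.59 (SE 0.30, limma adjusted p = 0.132) did not pass. Per transcript length, *Tcap* was 16.6-fold above *Ttn* in WT and 2.33-fold above it in C2-/-. The log2 difference between *Tcap* and *Ttn* changed by -2.83 from WT to C2-/-, and by -0.80 after the GC correction, with no test.

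Filamin C, the muscle filamin, links Z-disc proteins to actin and to the sarcolemma. *Flnc* (chromosome 6, 29433256 to 29461883, plus strand) stood at 9.46, 9.70, 9.34 and 8.92 in WT and at 7.68, 7.31 and 6.98 in C2-/-. All C2-/- libraries lay well below WT, and WT replicate 4 was again the nearest WT library. *Flnc* fell by 2.03 (SE 0.22, limma adjusted p = 0.000302). With 58.4% GC its GC-corrected change was -0.53 (95% confidence interval -0.94 to -0.11, limma adjusted p = 0.0715), the same direction but not past the threshold. Of its paralogs, *Flna* fell by 1.84 (SE 0.30, limma adjusted p = 0.00128) and was past the threshold after the GC correction at -0.99 (limma adjusted p = 0.0187).

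CapZ is the heterodimer that caps the barbed ends of thin filaments at the Z-disc, and *Capzb* (chromosome 4, 139192899 to 139291818, plus strand) encodes its β subunit. *Capzb* stood at 7.87, 8.06, 8.04 and 9.15 in WT and at 9.41, 9.33 and 9.13 in C2-/-. WT replicate 4 lay within the C2-/- range, far above the other WT libraries. The rise was 1.01 (SE 0.28, limma adjusted p = 0.0151). It was 1.30 without WT replicate 4, and without C2-/- replicate 1 it was 0.95 (limma adjusted p = 0.0524) and no longer passed. *Capzb* has a GC content of 51.9%, in a decile of genes whose median change was -0.35, and its rise was 1.5 (limma adjusted p = 0.00980) after the GC correction. Of the α subunits, *Capza2* stood at 8.51 to 9.15 in WT and at 9.42 to 9.74 in C2-/-. It rose by 0.81 (SE 0.19, limma adjusted p = 0.00650) but the GC-corrected change was -0.35 (limma adjusted p = 0.101). *Capza1* was much less abundant, with a change of 0.65 (limma adjusted p = 0.179) that passed at 0.98 without C2-/- replicate 2 (limma adjusted p = 0.0348) and was 0.38 without C2-/- replicate 1. The log2 difference between *Capzb* and *Capza2* was -0.46 ± 0.32 (SD, n = 4) in WT and -0.26 ± 0.31 (SD, n = 3) in C2-/-, means that differed by less than the SD of either group. After the GC correction it was -1.17 ± 0.59 in WT and 0.69 ± 0.28 in C2-/-, with no overlap, so whether the subunits moved together depended on the correction.

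Compared per transcript length, the order of the 10 genes differed between the groups. In WT the mean levels were 2740.1 CPM per kb for *Actn3*, 2229.5 for *Tcap* and 1756 for *Myoz1*, and each of these overlapped its neighbour in the order. Next came *Myot* at 700.0 and *Ldb3* at 432 CPM per kb, both apart from the genes above them. *Actn2* at 334, *Pdlim3* at 263, *Capzb* at 196 and *Pdlim5* at 140.4 CPM per kb each overlapped the neighbour above, and *Flnc* at 73.9 stood apart as the lowest. On the deposited values *Myot* took the first place in C2-/- at 1561 CPM per kb, whose range of 1452 to 1692 touched that of *Actn3* (829 to 1476, mean 1092). *Tcap* followed at 480.1 CPM per kb, then *Capzb* at 369, *Ldb3* at 332 and *Myoz1* at 298. The ranges of neighbours from *Tcap* down through *Actn2* (255) to *Pdlim5* (236) overlapped, whereas *Pdlim3* (149) and *Flnc* (18.1) each stood apart. So *Myoz1* moved from a level 2.51-fold above *Myot* to one 5.23-fold below it. After the GC correction *Actn3* was first in both groups (10.85 log2 CPM per kb in WT and 10.80 in C2-/-), and *Myot* moved from the fourth place (9.62) to the second (10.36), with *Myoz1* at 10.36 in WT and 8.72 in C2-/-. Lengths are those of the longest coding transcript, and the isoforms expressed in TA may be shorter or longer.

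**Figure D2:**
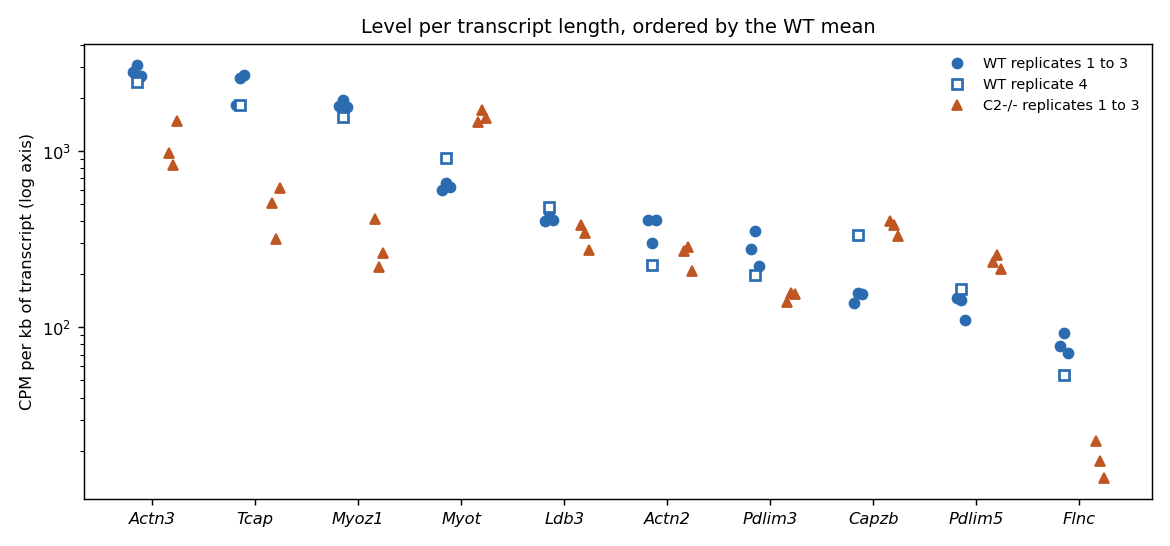
Level of the 10 Z-disc genes per transcript length, ordered by the WT mean. The vertical axis is CPM per kb of the longest coding transcript on a log scale, and symbols are single libraries as labelled. *Actn3*, *Tcap* and *Myoz1* lead in WT (means 2740.1, 2229.5 and 1756 CPM per kb), and *Myot* has the highest mean in C2-/- (1561 CPM per kb), a place that *Actn3* keeps after the GC correction.

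The genes that rose were lower in GC content than the genes that fell. The 3 genes that rose have 44.1%, 45.8% and 51.9% GC, and the 5 that fell have 52.2% to 61.3%. Compared with the median change of genes in the same GC decile, *Pdlim5*, *Pdlim3* and *Actn3* differed by -0.02, -0.08 and -0.09. *Flnc*, *Ldb3* and *Tcap* differed from it by -0.30, -0.40 and -0.51, and *Myot* and *Actn2* by 0.63 and 0.64. The farthest from it were *Capzb* at 1.36 and *Myoz1* at -1.60. After the GC correction 4 of the 10 genes were past the threshold, *Myot*, *Capzb* and *Actn2* as higher and *Myoz1* as lower, where 20.6% of all genes with a GC content were (12.3% higher and 8.31% lower). Of the 8 genes called on the deposited values, *Myoz1*, *Myot* and *Capzb* were those called again. When WT replicate 4 was also left out, a setting chosen after the data were seen, these 3 were called and *Actn2* was not. For *Capzb*, this was the WT library nearest to C2-/- (GC-corrected 9.09, against 7.62 to 7.81 in the other WT libraries). Leaving it out could only widen the *Capzb* difference, so that repeated call is no check.

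**Figure D3:**
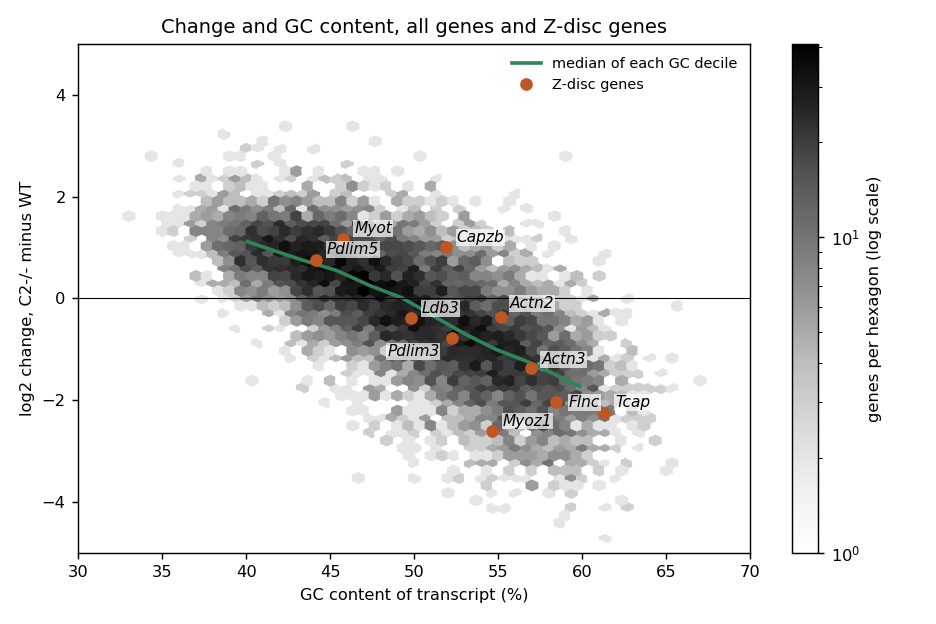
Log2 change (C2-/- minus WT) against the GC content of the transcript in percent. Grey hexagons show the number of genes on a log scale, the green line joins the medians of the 10 GC groups (1.11 at the lowest, -1.73 at the highest) and orange points are the Z-disc genes. *Actn3*, *Pdlim3* and *Pdlim5* lie on the line, *Capzb* is far above it and *Myoz1* far below.

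**Figure D4:**
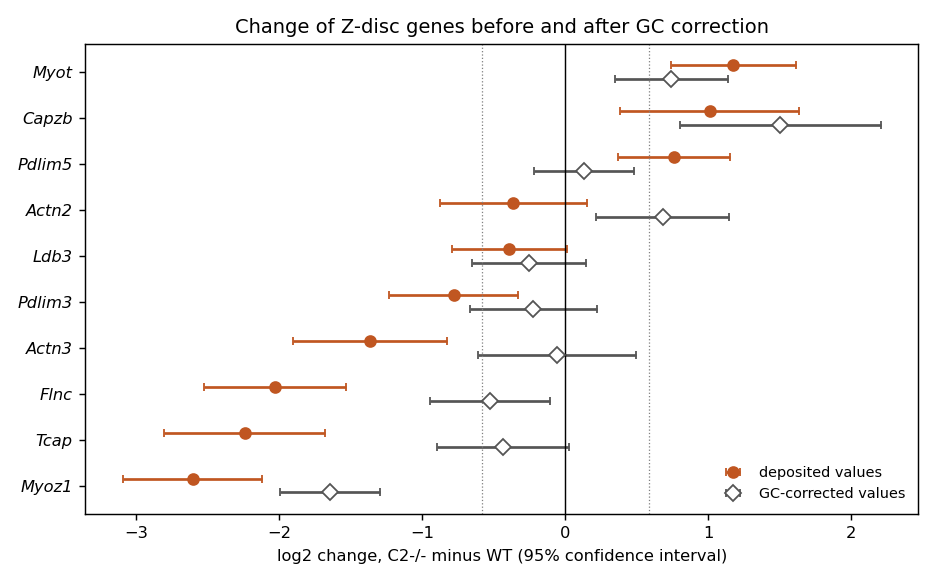
Log2 change of each Z-disc gene with its 95% confidence interval, from the deposited values (filled circles) and from GC-corrected values (open diamonds). Dotted lines mark the 1.5-fold change. The correction moved *Tcap* from -2.24 to -0.44 and *Actn3* from -1.37 to -0.06, and *Myoz1* from -2.61 to -1.64, which alone of these 3 remained past the threshold.

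The sequences upstream of the genes were compared with this. RefSeq promoter entries (GRCm38.p6) were matched for 6 of the 10 genes (*Actn2*, *Ldb3*, *Pdlim3*, *Pdlim5*, *Flnc* and *Capzb*). Shown are 250 bases upstream of the annotated start for 3 genes past the threshold, 1 that rose and 2 that fell, so that promoter and transcript GC can be set side by side. The window of *Capzb* lies in part in a first exon and is not shown, and the end of the *Pdlim3* window touches the first exon as GENCODE draws it. Capitals mark E-boxes, CANNTG, which the myogenic bHLH factors can bind and which read the same on both strands.
*Pdlim5* promoter, chr3:142395697-142395946, minus strand: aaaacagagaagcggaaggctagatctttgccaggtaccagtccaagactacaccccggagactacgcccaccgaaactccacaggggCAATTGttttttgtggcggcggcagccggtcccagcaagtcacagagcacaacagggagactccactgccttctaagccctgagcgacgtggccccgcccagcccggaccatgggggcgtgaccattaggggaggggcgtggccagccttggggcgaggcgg
*Pdlim3* promoter, chr8:45885237-45885486, plus strand: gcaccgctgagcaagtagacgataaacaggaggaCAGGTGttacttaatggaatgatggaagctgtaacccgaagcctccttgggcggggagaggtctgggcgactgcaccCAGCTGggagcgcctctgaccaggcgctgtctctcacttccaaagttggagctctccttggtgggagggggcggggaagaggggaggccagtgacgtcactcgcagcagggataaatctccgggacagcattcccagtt
*Flnc* promoter, chr6:29432903-29433152, plus strand: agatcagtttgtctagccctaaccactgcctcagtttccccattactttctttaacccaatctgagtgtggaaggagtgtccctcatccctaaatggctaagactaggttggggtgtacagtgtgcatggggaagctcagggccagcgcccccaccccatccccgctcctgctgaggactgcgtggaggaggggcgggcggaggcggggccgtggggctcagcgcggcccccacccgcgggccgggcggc

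These windows hold 62.8% GC for *Pdlim5*, which rose, and 59.2% for *Pdlim3* and 64.0% for *Flnc*, which fell, against a median of 52.4% over all promoters. Their transcripts hold 44.1%, 52.2% and 58.4% GC, ordered like the changes. Whether the promoters are so ordered depends on the annotated start, since other windows of *Pdlim5* and *Flnc* hold 31.6% and 77.2% GC. The number of E-boxes was 1 for *Pdlim5*, 2 for *Pdlim3* and 0 for *Flnc*, and 66.2% of 32841 promoters of this length hold at least 1. None of the 3 windows held TATAAA on either strand (12.4% of promoters do), a MEF2 site (2.92%) or a CArG box (1.47%), and *Pdlim3* held CATTCC at 2 places when both strands are read (12.6% of promoters hold it). No match overlapped an E-box in these windows. Such matches are descriptions of letters only.

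The C2-/- mean was also compared with WT replicate 4, the WT library of low depth, and with the other WT libraries separately. Both comparisons share the C2-/- mean, and WT replicate 4 was also in the main test, so agreement in direction is partly built in. For 9 of the 10 genes the C2-/- mean lay on the same side of this library alone as of the mean of the other WT libraries, which was so for 82.0% of all genes. The exception was *Actn2*, with a difference of 0.17 from WT replicate 4 and of -0.54 from the others. Over the 10 genes the median size of the difference was 0.65 against WT replicate 4 and 1.31 against the other WT libraries, and over all genes it was 0.77 and 0.98. *Myoz1*, *Tcap*, *Flnc* and *Actn3* differed from WT replicate 4 by -2.43, -1.98, -1.59 and -1.21. *Myot* and *Pdlim5* were higher by 0.77 and 0.52, and *Capzb* by only 0.14. With 1 library there is no replicate check of these differences.

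Other proteins of the Z-disc and its surroundings were counted from a list written with earlier results of these data known, so the counts are a description. Of 22 genes, 21 were in the table, and 4 of these were higher, 7 were lower and 10 did not pass (*Nebl* was not analysed here). Of 15 paralogs of the 10 genes, 14 were in the table, with 2 higher, 5 lower and 7 not past the threshold (*Capza3* was not analysed here). The median change was -0.47 for the first list and -0.38 for the second, beside -0.14 for all genes. These shares of called genes, 18 of 35, are close to the background of 45.2%. After the GC correction 10 of the 35 passed, 6 as higher and 4 as lower, and fits that left out a library gave 13 to 22.

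Among the genes of the list that fell, *Plec*, for plectin, which ties desmin filaments to the Z-disc, stood at 9.93, 10.01, 10.15 and 9.40 in WT and at 7.71, 7.64 and 7.19 in C2-/-. All C2-/- libraries lay well below all WT libraries. *Plec* fell by 2.36 (SE 0.21, limma adjusted p = 0.000216), and its GC-corrected change was -0.56 (limma adjusted p = 0.0745). *Des*, for desmin itself, fell by 1.12 (SE 0.19, limma adjusted p = 0.00163) but stood at 0.13 after the correction. *Zyx*, for the LIM protein zyxin, fell by 1.28 (SE 0.35, limma adjusted p = 0.0147), with -0.01 after the correction.

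Among the genes that rose, *Fhl1*, for a LIM protein of muscle, stood at 9.89 ± 0.08 (SD, n = 4) in WT and at 11.33 ± 0.37 (SD, n = 3) in C2-/-. Its rise of 1.44 (SE 0.20, limma adjusted p = 0.000638) was 1.62 after the GC correction (limma adjusted p = 0.00170), and WT replicate 4 lay with the other WT libraries. *Filip1*, for a filamin-interacting protein, rose by 0.84 (SE 0.24, limma adjusted p = 0.0192) and by 1.02 after the correction (limma adjusted p = 0.0191), and without C2-/- replicate 2 it had 0.58 (limma adjusted p = 0.0592) and did not pass. *Cryab*, for the small heat shock protein αB-crystallin, rose by 1.30 (SE 0.44, limma adjusted p = 0.0338), but WT replicate 4 at 10.65 lay inside the C2-/- range of 9.96 to 11.30 and the call was kept in 2 of the 7 fits that left out a library (those without WT replicate 4 and without C2-/- replicate 3). The GC-corrected rise of *Cryab* was 2.23 (limma adjusted p = 0.0110). *Neb*, for the thin filament ruler nebulin, rose by 1.14 (SE 0.32, limma adjusted p = 0.0156), a call kept in 5 of those 7 fits (lost without WT replicate 1 and without WT replicate 3), and had 0.85 after the correction (limma adjusted p = 0.0754).

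**Figure D5:**
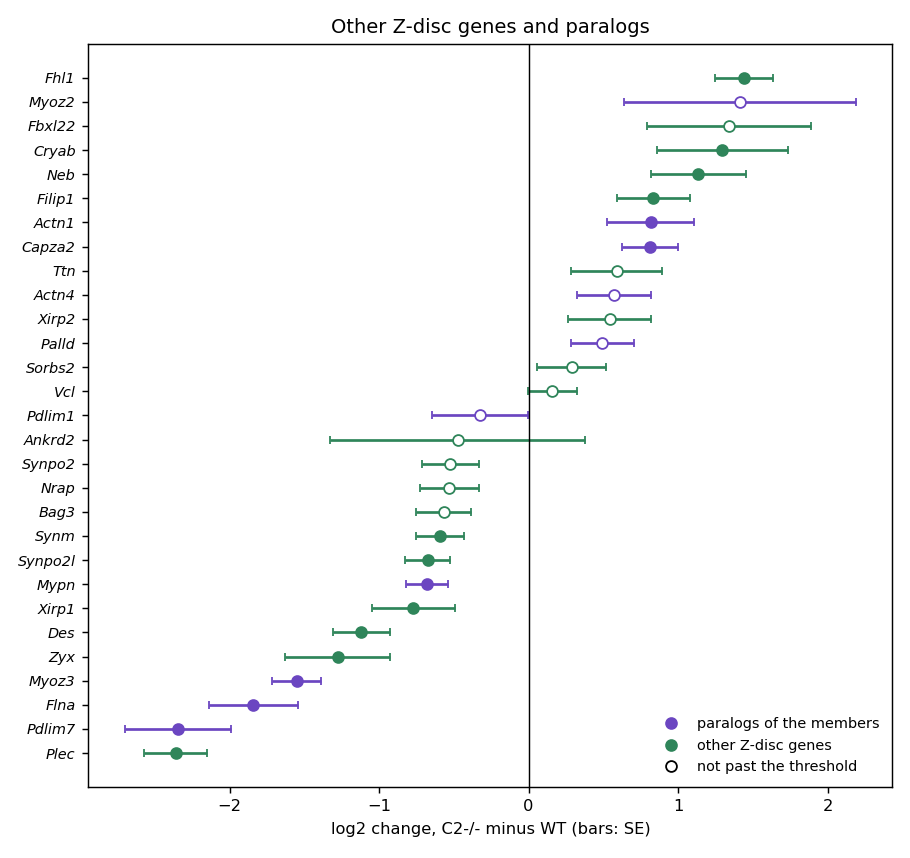
Log2 change (C2-/- minus WT) with its standard error for 29 paralogs and other Z-disc genes whose mean log2 value was 3 or more. Purple marks paralogs of the 10 genes, green marks other Z-disc genes and open circles did not pass the threshold. *Fhl1* is the highest at 1.44, and *Plec* and *Pdlim7* are the lowest at -2.36 and -2.35.

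The plain mean of the 10 centred log2 values, with no sign turned, ranged from 0.25 to 0.40 in WT, with WT replicate 4 at 0.27. In C2-/- it ranged from -0.46 to -0.28. The 10 genes did not share a single pattern. Pearson's r over the 7 libraries was 0.98 between *Myoz1* and *Flnc* but -0.96 between *Myoz1* and *Myot*. The mean follows the genes that fell, and *Myot*, *Pdlim5* and *Capzb*, which rose, ran against it. Likeness to this mean, also by Pearson's r, was taken over 7744 candidates outside the lists, and is not likeness to each of the 10 genes. The 5 genes most like the mean were *9530068E07Rik* (0.996), *Ascc2* (0.995), *Slc39a13* (0.995), *Pxn* (0.995) and *Akr1a1* (0.995). The 7 points fall into the 2 genotype groups and share depth and GC effects, so these values are given as a description and with no test.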

How the data were processed

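Polyadenylated RNA of whole TA muscle was sequenced as DNA nanoballs. Per the labels and the study's methods, the authors aligned reads to GRCm38.p6 with HISAT, counted them per gene with featureCounts (version 1.5.2), applied TMM factors and deposited log2 values of CPM (reads for each 1e6 reads), 1 column per library, for 12239 genes. Multiple mapping, strand and the gene filter are not given in the sources used here. A second deposited table holds the authors' own limma comparison (fold changes and p-values) and was not used.

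Undoing the log and the scaling gave whole reads plus 0.5 for 100% of values, to within 2.2e-08 reads. The count test on these recovered reads was limma/voom, as an alternative. Sample titles gave the groups. The main test was limma (version 3.58.1, R 4.3.3) with a mean-variance trend on the deposited log2 values, genotype the only term, two-sided, Benjamini-Hochberg over all genes, past the threshold at an adjusted p under 0.05 and a fold above 1.5. The GC correction removed a natural spline (5 degrees of freedom) of transcript GC content per library, with GC known for 12169 genes (99.4%, 351 matched through another symbol, GENCODE M21). The fit was also run on simulated reads with known changes and no trend with GC content, so that run does not bear on the GC effect. Alternatives were quantile normalization, median centring, only genes with a mean log2 value from 3 up, log2(CPM + 1), no trend, library weights, a replicate block and leaving out each library. Named were the 10 genes, their paralogs and the 8 largest changes among other called Z-disc genes (mean log2 value 3 or more). Also named were the 5 genes most like the mean of the 10. Of the lists, 2 genes are counted but not reported here. The members, lists and tests were chosen with earlier results of these data known. Depth was 2613277 to 15464499 reads per library, and at 3 reads a gene stands at 0.195 to 1.12 CPM, which covers counting error only.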

Additional observations from a re-analysis of the deposited data

Results flagged for a closer look

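Among 38 values tested for a sample far from the rest of the 4 WT libraries (Dixon's test), 3 were singled out, where chance gives about 1.9, and all 3 belonged to WT replicate 4. *Capzb* stood at 9.15 there and at 7.87 to 8.06 in the other WT libraries, within the C2-/- range of 9.13 to 9.41. *Pdlim2* had 0 reads there (a log2 value of -3.14) against 0.42 to 0.52 in the others, and at this library's depth 3 reads amount to 0.683 CPM. The reads in the table were 4683853 there and 14929214 to 15464499 in the others. Depth was thus low in the same library as the values that stand apart, and its part in them was not tested.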

How the results depend on the processing

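The count of 8 Z-disc genes past the threshold was 7 or 8 under every alternative on the deposited scale, voom included. The GC correction gave 4 (1 lower) with 2502 genes overall and 10 of the 35 other Z-disc genes. With WT replicate 4 left out of the corrected data, a setting chosen after seeing the data, it gave 3 (1 lower) with 3119 genes. Median centring moved the median change of all genes from -0.14 to 0.02 and the split of calls from 2473 higher and 3055 lower to 3040 and 2594. Quantile normalization moved the median to 0.05 and the split to 2883 and 2760. Neither changed the direction of any of the 10 genes. Leaving out each library in turn gave 7 or 8 genes, and the lost call was that of *Capzb* without C2-/- replicate 1.

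The replicate numbers did not pair the libraries, since same-numbered libraries correlated at -0.05 to -0.02. With the replicate block, which drops WT replicate 4, 8 Z-disc genes and 5929 genes overall were past the threshold. The block with GC correction gave 3 (1 lower) and 2926.

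Among the genes named by rule, signs that turned with the GC correction, with the block and GC correction, and with the correction without WT replicate 4 were those of *Actn2* (0.68, 0.59 and 0.59), *Mypn* (0.10, 0.20 and 0.20), *Pdlim2* (1.05, 0.26 and 0.26), *Capza1* (-0.11, -0.16 and -0.16), *Capza2* (-0.35, -0.30 and -0.30), *Des* (0.13, 0.18 and 0.18) and *Slc39a13* (0.38, 0.45 and 0.45), and under the latter pair *Zyx* (0.18 and 0.18). *Pdlim2* was also 0.54 with quantile normalization and -1.35 to 0.33 over the fits without 1 library (highest without C2-/- replicate 2), and *Pdlim1* was -0.54 to 0.0021 over those fits (highest without C2-/- replicate 3). The causes were not tested. A further pair of planned count-model tests was not run.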
